A study of Saccharomyces cerevisiae with 4 samples.

Results

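The levels of 10 genes of cysteine synthesis, S-adenosylmethionine (SAM) synthesis and methionine uptake were followed in budding yeast exposed to thiolutin. They were chosen by name from textbook pathways (STR2, STR3, CYS3, CYS4, SAM1, SAM2, MUP1, MUP3, MMP1 and MHT1), with earlier results of these data known. All 10 were found among the 6209 genes of the count table. All 10 passed the edgeR filter on low counts, which left 5937 genes. Poly(A)-selected RNA came from 2 untreated cultures and from 2 cultures of the same strain exposed to thiolutin, a disulfide-containing RNA polymerase inhibitor, at 3 µg/mL for 3 h. Every culture was BY4741 in YPD, a haploid laboratory strain of the genotype MATa his3 leu2 met15 ura3. The met15 deletion, which untreated cells carry too, removes Met17, the enzyme that joins sulfide to O-acetylhomoserine to give homocysteine. MET17, LEU2 and URA3 were not analysed here. The labels place the cells in exponential growth, the paper's methods in overnight cultures. The replicates are labelled as biological, without saying how the cultures were separated.

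Yeast moves sulfur between homocysteine and cysteine along paired routes that meet at cystathionine. Cys4 and Cys3 carry it from homocysteine to cysteine, and Str2 and Str3 carry it back. Methionine, made from homocysteine or imported, is turned by Sam1 and Sam2 into SAM, the methyl donor of the cell. The activator Met4, recruited to DNA by Cbf1 and by Met31 and Met32, switches on most genes of the pathway when sulfur amino acids are scarce.

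Reads counted in genes ranged from 17038991 to 30205335 per library. Normalized reads below are raw counts scaled by TMM, a factor per library that leaves out extreme genes. A change is the log2 fold change of thiolutin against untreated, and a gene was called at an adjusted p under 0.05 from the quasi-likelihood test of edgeR over all 5937 genes. Genes of mating type a cells (5 markers, between 1598 and 16621 normalized reads in every library) stood above the 4 markers of alpha cells (between 5.70 and 985). In bulk RNA, a lower share of a transcript and less RNA per cell cannot be told apart.

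With thiolutin, 7 of the 10 genes rose (CYS3, CYS4, STR2, SAM2, MUP3, MMP1 and MHT1), SAM1 fell, and STR3 and MUP1 did not pass. Over all genes tested, 31.2% were higher and 32.4% lower by the same rule. At least doubled among the called genes (a log2 fold change no lower than 1) were 6 of the 10, against 15.7% of all genes. Each thiolutin library exceeded each untreated one in 7 of the 10 genes, the same 7 that were called higher, and in 40.8% of all genes. The median log2 fold change was 1.15 over the 10 genes and -0.041 over all genes. With total counts as the scale the medians were 0.56 and -0.63, and 3 of the 10 genes remained called higher, CYS3 at 1.53, MMP1 at 0.69 and STR2 at 0.43. Of all 5937 genes, 965 were then higher and 3605 lower.

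**Figure D1:**
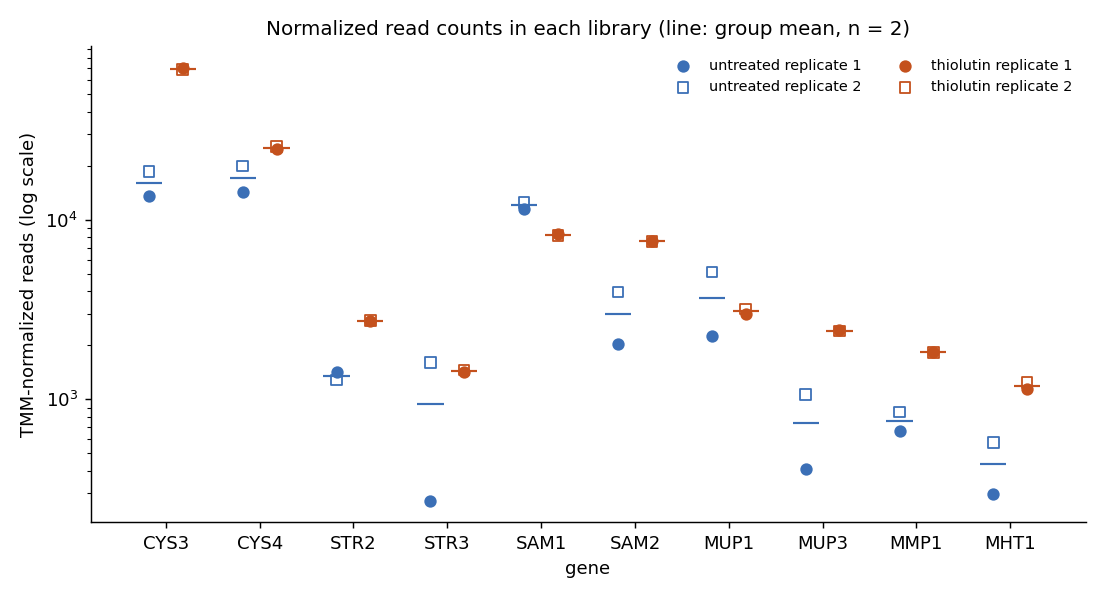
TMM-normalized reads (log scale) of the 10 genes in the 2 untreated (blue) and 2 thiolutin (orange) libraries, with the group mean as a line. CYS3 had the most reads with thiolutin (70538 and 68783), and STR3 had the widest gap between the untreated libraries (273 and 1605).

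The route from homocysteine to cysteine rose at both steps. CYS3 (YAL012W, chromosome I, 130799 to 131983 of R64) encodes cystathionine gamma-lyase, which releases cysteine. CYS3 had 13543 and 18608 normalized reads in the untreated libraries and 70538 and 68783 with thiolutin. The thiolutin libraries were far above both untreated ones, and the log2 fold change was 2.12 (standard error 0.18, adjusted p = 0.000620 from edgeR), the largest of the 10. Without an untreated library the log2 fold change of CYS3 was 1.91 or 2.37. CYS4 (YGR155W, chromosome VII, 798543 to 800066) encodes cystathionine beta-synthase, which joins homocysteine to serine. CYS4 had 14291 and 19976 normalized reads untreated and 24923 and 25560 with thiolutin. The groups did not overlap, but the log2 fold change of 0.56 was small (standard error 0.18, adjusted p = 0.0402 from edgeR). Leaving out either thiolutin library, replicate 1 (adjusted p = 0.179 from edgeR) or 2 (0.198), ended the call on CYS4. With total counts as the scale the log2 fold change of CYS4 was -0.031 (adjusted p = 0.882 from edgeR).

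The upstream stretches of both genes hold letters that the factors of the pathway are known to bind, shown on the plus strand of R64 (RefSeq) with matches in capitals. In CYS3 (chrI:130549-130608) the capitals mark TTACTAA, a motif of Yap1, 235 bases before the start codon, and CACGTG, the motif of Cbf1, 216 bases before it. In CYS4 (chrVII:798313-798372) they mark CCACAG, 207 bases before the start, the reverse complement of the Met31 and Met32 core.
CYS3: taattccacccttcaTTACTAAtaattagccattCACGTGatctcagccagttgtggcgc
CYS4: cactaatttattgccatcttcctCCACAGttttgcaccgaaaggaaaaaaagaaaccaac
Windows from 250 bases before to 50 after the start of 6020 protein-coding genes were searched on both strands. CACGTG was in 2.91% of them and in 1 of the 10 genes (CYS3). The Met31 and Met32 core, CTGTGG, was in 6.83% of windows and in 4 of the 10 genes (CYS4, MUP3, MMP1 and MHT1). The matches of MMP1 and MHT1 are the same sites, in the stretch between these neighbouring genes. TTACTAA was in 7.49% of windows and in 1 of the 10 (CYS3). TGACTC, the core of the Gcn4 motif, was in 7.96% of windows and in 3 of the 10: MUP1, MUP3 and, inside the coding sequence, CYS3. A match describes these letters only and is no evidence of binding. STR2, STR3, SAM1 and SAM2 held none of these motifs in this window.

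On the route back to homocysteine one step rose and the other could not be placed. STR2 (YJR130C, chromosome X, 665218 to 667137) encodes cystathionine gamma-synthase, which starts from cysteine. STR2 had 1416 and 1280 normalized reads untreated and 2727 and 2750 with thiolutin. Its untreated libraries were close to each other, and the log2 fold change of 1.02 (standard error 0.093, adjusted p = 0.000760 from edgeR) stayed between 0.96 and 1.11 with either untreated library left out and was 0.43 on total counts. STR3 (YGL184C, chromosome VII, 154615 to 156012) encodes cystathionine beta-lyase, which finishes the route. STR3 had 273 and 1605 normalized reads untreated and 1425 and 1460 with thiolutin. The thiolutin libraries were close together and lay between the untreated ones. The log2 fold change of STR3 was 0.62, with a 95% interval from -1.33 to 2.57 (adjusted p = 0.506 from edgeR). Against untreated replicate 2 alone the log2 fold change of STR3 was -0.14, and against replicate 1 alone it was 2.41, so the direction rests on 1 library. STR2 is 69.0% identical over 874 aligned bases to YML082W, a related gene that did not pass (log2 fold change 0.29, adjusted p = 0.167 from edgeR), except without untreated replicate 2 (0.49). HSU1, similar to Str2 and able to make homocysteine from sulfide, rose by a log2 fold change of 0.89 (adjusted p = 0.00194 from edgeR), a call that was lost on total counts (0.30, adjusted p = 0.0568).

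**Figure D2:**
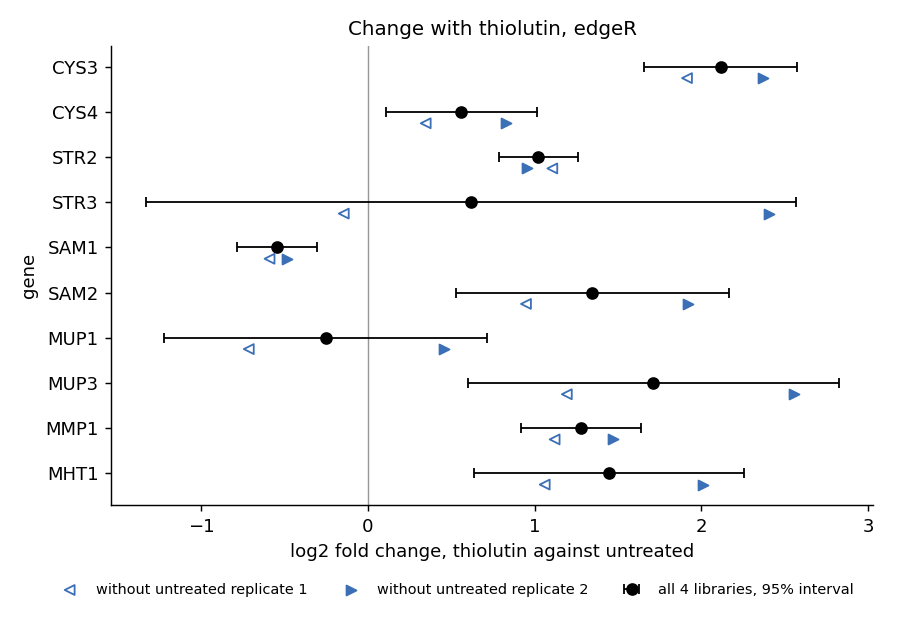
Log2 fold change of each of the 10 genes, thiolutin against untreated, from edgeR with its 95% interval (black), and the value with untreated replicate 1 (open triangles) or 2 (filled triangles) left out. STR3 and MUP1 lie on opposite sides of 0 depending on which untreated library is left out, and the other 8 keep their side.

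The SAM synthetase genes moved in opposite directions. SAM1 (YLR180W, chromosome XII, 515262 to 516410) had 11565 and 12490 normalized reads untreated and 8323 and 8181 with thiolutin. SAM2 (YDR502C, chromosome IV, 1453310 to 1454464) had 2023 and 3976 normalized reads untreated and 7674 and 7577 with thiolutin. For neither gene did the groups overlap. SAM1 fell by 0.54 on the log2 scale (standard error 0.094, adjusted p = 0.00565 from edgeR), and SAM2 rose by 1.35 (standard error 0.32, adjusted p = 0.0164 from edgeR). SAM1 was no longer called with thiolutin replicate 1 left out (adjusted p = 0.122 from edgeR) or with replicate 2 left out (0.140). With total counts as the scale the log2 fold change was -1.13 for SAM1 and 0.75 for SAM2, which then did not pass (adjusted p = 0.0749 from edgeR). The log2 fold change of SAM2 was 0.95 without untreated replicate 1 and 1.92 without untreated replicate 2.

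The ratio of SAM2 to SAM1 reads per kilobase of gene does not depend on how libraries are scaled. It was 0.174 and 0.317 in the untreated libraries and 0.917 and 0.921 with thiolutin, a 3.92-fold change of the mean on the log scale. SAM1 held most of the pair's reads in untreated cells, and with thiolutin the genes were nearly level. The two-sided exact permutation test gave p = 0.333, the smallest that 2 libraries against 2 can give. The coding sequences are 83.6% identical over 1141 aligned bases, so reads from one can be counted in the other if the authors' counting allowed several matches, which the sources used here do not say. A read wholly inside a shared run would match both genes, and only its mate from the other end could place it. The longest run that both share is printed, on SAM1 at chrXII:515961-516019 of R64.
SAM1 and SAM2: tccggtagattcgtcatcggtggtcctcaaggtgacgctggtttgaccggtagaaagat
This run is 59 bases long and starts at base 700 of SAM1 and base 706 of SAM2.

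Of the methionine permease genes one rose and the other did not pass. MUP3 (YHL036W, chromosome VIII, 26241 to 27881) encodes the low-affinity methionine permease and had 412 and 1062 normalized reads untreated and 2429 and 2401 with thiolutin. The groups were well apart, and the log2 fold change of MUP3 was 1.71 (standard error 0.43, adjusted p = 0.0202 from edgeR). It was 1.19 without untreated replicate 1 and 2.55 without untreated replicate 2. With total counts as the scale MUP3 did not pass (1.12, adjusted p = 0.0569 from edgeR). MUP1 (YGR055W, chromosome VII, 599417 to 601141) encodes the high-affinity permease and had 2261 and 5115 normalized reads untreated and 3008 and 3179 with thiolutin. As for STR3, the thiolutin libraries lay between the untreated ones. The log2 fold change of MUP1 was -0.25, with a 95% interval from -1.22 to 0.71 (adjusted p = 0.580 from edgeR). It was -0.71 without untreated replicate 1 and 0.46 without untreated replicate 2.

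Within libraries the balance of MUP1 to MUP3, in reads per kilobase, varied less between the untreated cultures than either gene did. The ratio was 5.22 and 4.58 in the untreated libraries and 1.18 and 1.26 with thiolutin. The untreated values were thus 4.01-fold above the thiolutin values on the log scale, with no overlap (exact permutation p = 0.333, the smallest possible). The ratio of the cysteine-making genes (CYS3 plus CYS4) to those of the reverse route (STR2 plus STR3) was 22.3 and 15.9 untreated and 31.1 and 30.2 with thiolutin. It was 1.63-fold higher with thiolutin (exact permutation p = 0.333). The log2 change of this ratio was 0.70, or 0.95 without untreated replicate 1 and 0.46 without untreated replicate 2. Its rise rests on CYS3. In the edgeR fit CYS3 changed 4.33-fold and CYS4 1.47-fold, beside 2.03-fold for STR2 and 1.54-fold for STR3, which was not called. Only these 3 ratios were compared, and with p at its floor in each no adjustment can bring one past the threshold.

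**Figure D3:**
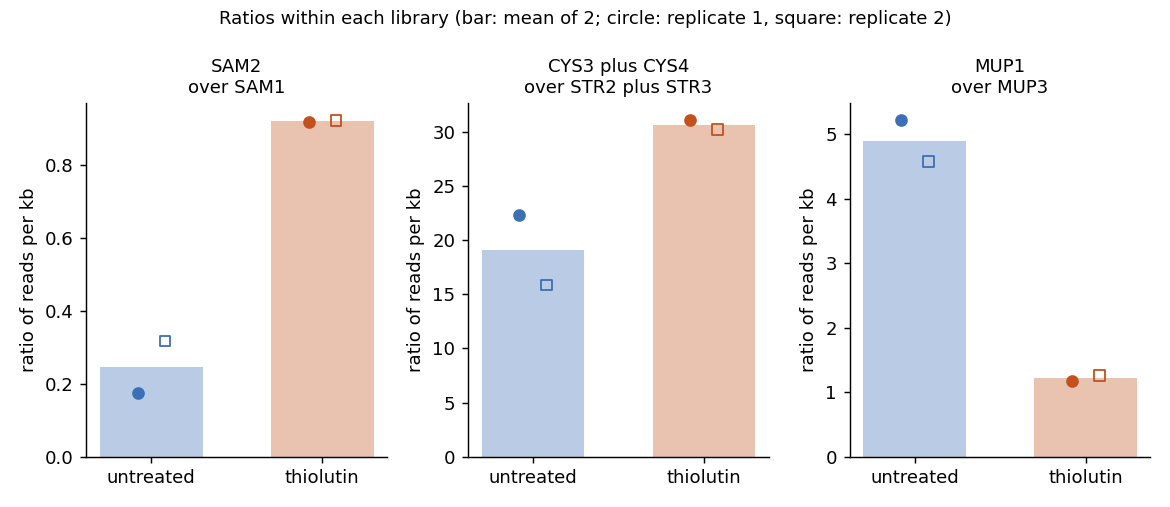
Ratios of reads per kilobase within each library for SAM2 over SAM1, CYS3 plus CYS4 over STR2 plus STR3, and MUP1 over MUP3, with bars at the mean of 2 libraries and points for the libraries. SAM2 over SAM1 went from 0.174 and 0.317 to 0.917 and 0.921, and MUP1 over MUP3 from 5.22 and 4.58 to 1.18 and 1.26.

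The neighbours MMP1 and MHT1, which handle S-methylmethionine, rose together. MMP1 (YLL061W, chromosome XII, 17956 to 19707) encodes the S-methylmethionine permease and had 666 and 850 normalized reads untreated and 1843 and 1830 with thiolutin. MHT1 (YLL062C, chromosome XII, 16639 to 17613) encodes the enzyme that uses S-methylmethionine to turn homocysteine into methionine. MHT1 had 297 and 575 normalized reads untreated and 1139 and 1239 with thiolutin. The groups were apart for both genes. The log2 fold change was 1.28 for MMP1 (standard error 0.14, adjusted p = 0.00128 from edgeR) and 1.45 for MHT1 (standard error 0.32, adjusted p = 0.0123 from edgeR). Without untreated replicate 1 or 2 the log2 fold change was 1.12 or 1.47 for MMP1 and 1.06 or 2.01 for MHT1. MHT1 did not pass with total counts as the scale (0.86, adjusted p = 0.0503 from edgeR).

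MMP1 and MHT1 are transcribed away from each other from an intergenic stretch of 342 bp. The core of the Met31 and Met32 motif occurs there at 172 and 155 bases before the start of MMP1, which is 176 and 193 bases before the start of MHT1 when read on the other strand. MUP3 has that core 179 bases before its start and the reverse complement of TGACTC 123 bases before it. The stretches are shown because these genes rose, on the plus strand of R64, at chrXII:17756-17825 for MMP1 and chrVIII:26041-26140 for MUP3, with matches in capitals.
MMP1 and MHT1: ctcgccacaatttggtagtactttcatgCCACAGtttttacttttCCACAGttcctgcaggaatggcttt
MUP3: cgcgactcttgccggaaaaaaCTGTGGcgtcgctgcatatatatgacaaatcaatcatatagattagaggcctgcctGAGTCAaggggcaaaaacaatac
The closest relatives of this pair outside the 10 genes are SAM3 and SAM4. SAM3 encodes a permease for SAM (71.5% identical to MMP1 over 1482 aligned bases). SAM4 encodes a homocysteine methyltransferase (67.6% identical to MHT1 over 950). SAM3 had 664 and 1420 normalized reads untreated and 3759 and 3569 with thiolutin, and it rose (log2 fold change 1.81, standard error 0.36, adjusted p = 0.00875 from edgeR). Without untreated replicate 1 or 2 the change of SAM3 was 1.37 or 2.47. SAM4 did not pass (-0.17, adjusted p = 0.276 from edgeR) except without untreated replicate 1 or on total counts, where it was lower (-0.30 and -0.76).

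Per kilobase of gene, the 10 genes spanned a wide range of levels. In untreated cells the normalized reads per kilobase were 13566 ± 3023 for CYS3, 11242 ± 2637 for CYS4 and 10468 ± 569 for SAM1 (SD, n = 2 each). CYS3 was above SAM1 in both libraries without overlap, and CYS4 overlapped each of them. SAM2 (2597 ± 1195) and MUP1 (2138 ± 1170) came next and overlapped too. STR2 (702 ± 50), STR3 (672 ± 674), MUP3 (449 ± 280), MHT1 (447 ± 201) and MMP1 (433 ± 74.4) were lowest. Of these 5, STR2 was above MUP3, MHT1 and MMP1 in both libraries, and the others overlapped. With thiolutin CYS3 stood at 58785 ± 1047 normalized reads per kilobase and CYS4 at 16562 ± 296, followed by SAM1 at 7182 ± 87.4 and SAM2 at 6602 ± 59.7. The other 6 genes lay between 1032 ± 17.5 (STR3) and 1793 ± 70.2 (MUP1). The 10 genes held 0.217% and 0.307% of the gene reads in the untreated libraries and 0.384% and 0.382% with thiolutin. Of their raw reads CYS3 alone had 19002 of 65591 and 26115 of 91977 untreated. With thiolutin CYS3 had 37170 of 65357 and 45845 of 81955. The summed share thus does not show a rise of the genes other than CYS3.

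The untreated cultures differed from each other in these genes more than in most, except in SAM1 (1.08-fold) and STR2. Only 29.2% and 37.4% of all genes tested were closer between the untreated libraries than SAM1 and STR2. Of the 10 genes 9 had more normalized reads in untreated replicate 2, all but STR2, against 48.8% of all genes tested. The median size of the log2 ratio of untreated replicate 2 over 1 was 0.72 for the 10 genes and 0.20 for all genes. In the thiolutin pair it was 0.030 and 0.062. STR3 (5.88-fold), MUP3 (2.58-fold) and MUP1 (2.26-fold) were at least 2-fold apart between the untreated libraries, which held for 2.64% of all genes in either direction and for 0.354% with replicate 2 higher. SAM2 (1.97-fold) and MHT1 (1.93-fold) lay just under. With a small constant added to both counts before the ratio, only DPA10 and SAE3 were farther apart than STR3. Each had fewer than 5 normalized reads in both untreated libraries, and they were singled out after their values were seen. The same 2-fold distance was reached by 3 of the 50 related genes tested, SAM3 and MET6 with replicate 2 higher and SHM2 with replicate 1 higher. MET6, the methionine synthase gene, was likewise named for its values (3333 and 8442 normalized reads untreated, 13813 and 14564 with thiolutin). The depth of the untreated libraries was nearly equal (30205335 and 29962621 reads). What differed between the untreated cultures was not tested.

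**Figure D4:**
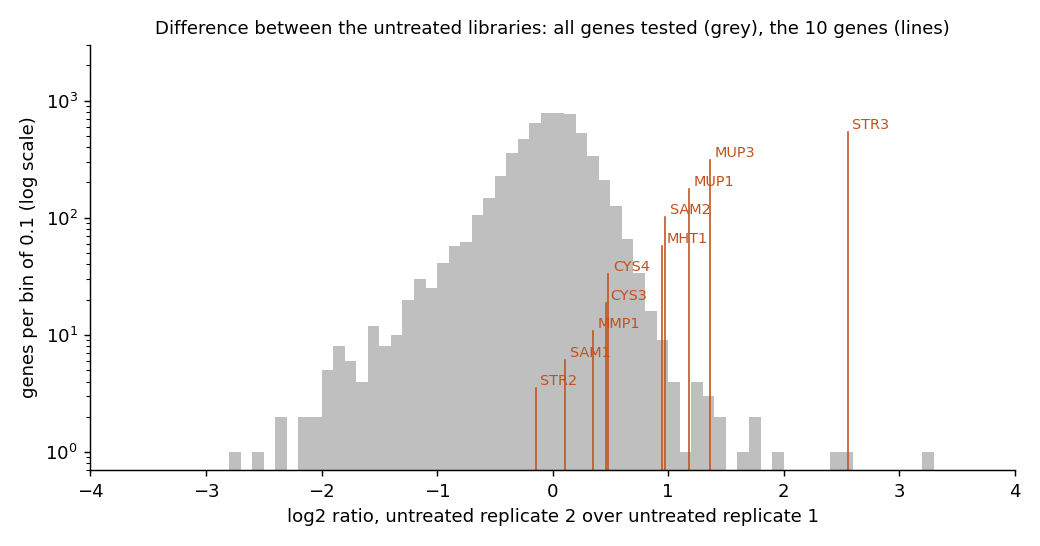
Number of genes (log scale) by the log2 ratio of untreated replicate 2 over untreated replicate 1, over the 5937 genes tested (grey), with a line at the ratio of each of the 10 genes, its height set only to keep labels apart. STR3 lies at 2.55, MUP3 at 1.37 and MUP1 at 1.18, and STR2 alone lies below 0 (-0.15).

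Around the 10 genes, 51 others of sulfur amino acid metabolism were listed from textbook knowledge, with earlier results of these data known, and 50 were tested. Of these 24 rose, 12 fell and 14 did not pass, beside 31.2% and 32.4% of all genes. Where a list's counts are also given on total counts, they stand beside 965 higher and 3605 lower genes of 5937 on that scale. Of 10 genes of sulfate uptake and assimilation 6 rose and none fell (on total counts 6 and 3). MET16 (log2 fold change 2.74, standard error 0.12), MET3 (2.31, standard error 0.11) and MET1 (2.03, standard error 0.12) changed most. MET3 encodes ATP sulfurylase, MET16 the PAPS reductase and MET1 an enzyme of siroheme synthesis. Of 6 regulators 5 rose, and CBF1 did not pass (on total counts 3 were higher and 1 lower). MET28 (3.35, standard error 0.25) and MET32 (3.00, standard error 0.12), cofactors of Met4, changed most, and MET4 itself rose by 0.87 (standard error 0.093), or 0.28 on total counts.

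Of 9 genes of methionine synthesis with its homoserine and folate supply, 5 rose and 4 fell, among them HOM6 (1.76) and HOM3 (1.62), which supply homoserine, and SHM2 (-2.15, standard error 0.51), the cytosolic serine hydroxymethyltransferase. On total counts 2 genes of this list were higher and 5 lower, and with the Wald test of DESeq2 or without the filter on low counts 3 were higher. SHM2 stood at -1.16 without untreated replicate 1 and at -2.73 without untreated replicate 2. With SHM2 at -2.12 and -2.19, the call was lost with either thiolutin library left out, replicate 1 (adjusted p = 0.0612 from edgeR) or 2 (0.0538). Of 13 genes of SAM use, the methyl cycle and methionine salvage, 3 rose and 4 fell, beside 31.2% and 32.4% of all genes (on total counts 1 and 10). SAM3 led, followed by the mitochondrial SAM carrier SAM5 (-0.66, adjusted p = 0.0528 without thiolutin replicate 2) and the SAM decarboxylase gene SPE2 (0.59, adjusted p = 0.0585 without thiolutin replicate 1, and a log2 fold change of 0.0016 on total counts). Of 12 genes of cysteine uptake, use and release, 5 rose and 4 fell (on total counts 2 and 8). The cysteine transporter gene YCT1 (3.07, standard error 0.11) rose, and the amino acid permease gene AGP1 (-1.77, standard error 0.14) and ECM38 (-1.56, standard error 0.13), which starts glutathione breakdown, fell. The medians of these 5 lists were 1.37 (sulfate), 0.83 (regulators), 0.25 (methionine synthesis), -0.12 (SAM use) and -0.24 (cysteine use).

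**Figure D5:**
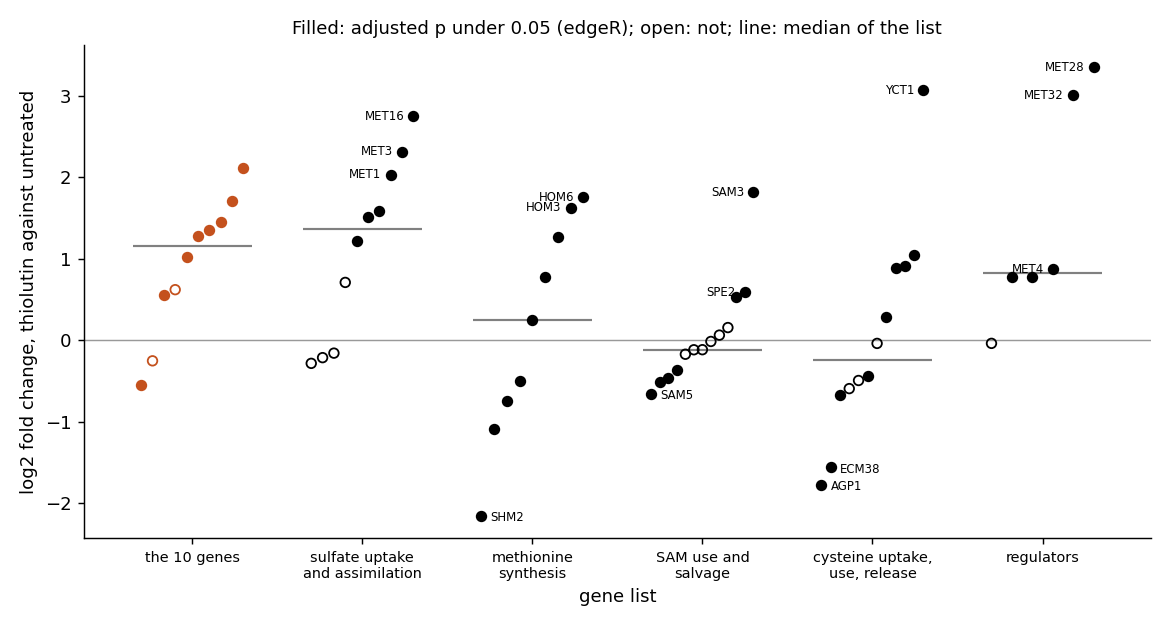
Log2 fold change, thiolutin against untreated, of the 10 genes (orange) and of 5 lists of related genes (black), filled where the adjusted p from edgeR was under 0.05, with the median of each list as a line. The 10 genes have a median of 1.15, and MET28, YCT1 and MET32 are the highest of the related genes at 3.35, 3.07 and 3.00.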

How the data were processed

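Poly(A)-selected libraries of 2 untreated and 2 thiolutin-treated BY4741 cultures were sequenced from both ends. The deposited counts are the authors' raw reads per gene on build R64, without normalization. Not given in the sources used here were the aligner, the counting program and its handling of strand and of reads with several matches. The deposited normalized values, fold changes and p-values of the authors' DESeq2 comparison were not used. The table held 6209 genes, after 3 empty rows were dropped, with 17038991 to 30205335 reads per library, and each of the 10 genes had at least 383 reads in every library. Gene positions are those of the table, and for all 10 genes start and end equal those of the RefSeq R64 annotation.

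Genes were filtered by filterByExpr and libraries scaled by TMM in edgeR 4.0.16 (R 4.3.3). The quasi-likelihood test had group as its only term, and the Benjamini-Hochberg adjustment covered 5937 genes. Standard errors are the log2 fold change over the root of F. The biological coefficient of variation was 12.2%. With 2 libraries per group the spread is borrowed across genes. The fit was checked only on simulated counts with the same spread in both groups, whereas here the untreated pair differed more than the thiolutin pair. Ratios within libraries were compared by exact permutation. Motifs were searched with Python 3.11.15, and alignments were made with blastn. Alternatives exchanged TMM for DESeq2 size factors or for plain totals, the test for DESeq2 1.42.0 (Wald), and the threshold for an adjusted p under 0.01 or an added fold limit. Others dropped the low-count filter, blocked on replicate number, or omitted a library. The 10 genes and the lists were chosen with earlier results of these data known, the authors' values for the 10 genes included. The genes named by rule are the 10, their relatives SAM3, SAM4, HSU1 and YML082W, and up to 3 called genes with the largest change in each list. MET6, CBF1, DPA10, SAE3, CHA1, GTT2 and SWC3 were named after their values were seen.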

Additional observations from a re-analysis of the deposited data

How the results depend on the processing

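Of the 10 genes, all kept their direction and call with the size factors of DESeq2, with its Wald test and without the filter on low counts. On total counts 3 were higher (7 with TMM) and 1 lower, the log2 fold change of CYS4 was -0.031 and that of YML082W -0.30, and over all genes 965 were higher and 3605 lower (1850 and 1924 with TMM). In the lists, higher and lower were then 2 and 5 for methionine synthesis, 1 and 10 for SAM use, 2 and 8 for cysteine use, 3 and 1 for regulators and 6 and 3 for sulfate. An adjusted p under 0.01 left 3 of the 10 genes higher and 1 lower, 1344 and 1280 of all genes, 3 and 2 of methionine synthesis, and 2 and 1 of SAM use. Requiring a doubling as well left 6 and 0 of the 10 genes, 931 and 613 of all genes, 3 and 2 of methionine synthesis, 1 and 0 of SAM use, 2 and 2 of cysteine use and 2 higher regulators. In methionine synthesis 3 rather than 5 were higher with the Wald test and without the filter. Across 5937 genes the replicate differences of the groups correlated with r = 0.023, so the numbers were not taken to pair the cultures. With the replicate number as a block, 8 of the 10 genes were higher (STR3 at 1.07, adjusted p = 0.0141 from edgeR) and 1 lower, and 6 rather than 4 genes of cysteine use were lower.

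With each library left out in turn, 6 to 9 of the 10 genes were higher and 0 to 3 lower, and 1163 to 2437 of all genes were higher and 893 to 2572 lower. The ranges, higher then lower, were 3 to 5 and 1 to 4 for methionine synthesis, 1 to 4 and 0 to 7 for SAM use, 4 to 5 and 2 to 6 for cysteine use, and 6 to 7 and 0 to 2 for sulfate. The log2 fold change of MUP1 was between -0.71 and 0.46, and that of STR3 between -0.14 and 2.41. A lone library was then assumed to vary like the other group, so p was small where only the close thiolutin pair set the spread. The cause of these shifts was not tested. With 2 cultures per group, the 95% interval of STR3 ran from -1.33 to 2.57, and the effect of depth was not tested.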

Other observations

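CHA1, the serine deaminase gene, came next after STR3 in distance between the untreated libraries among genes with over 100 normalized reads in both. It had 598 and 3250 normalized reads untreated, and it was singled out after its values were seen. Of the 10 genes none overlaps another gene of the table. Of their neighbours 2 that rose are given here, picked for their values, while others rose, fell or did not pass. GTT2, a glutathione transferase gene, lies 1430 bp beyond the end of MMP1 and had a log2 fold change of 2.85 (adjusted p = 0.000246 from edgeR). SWC3, of the SWR1 chromatin remodeler, lies 215 bp beyond the end of CYS3 on the same strand and had a log2 fold change of 1.78 (adjusted p = 0.000181 from edgeR).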
